A study of Homo sapiens with 7 samples.

Results

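The genes for the proteins of the cytosolic ribosome were followed in human dermal fibroblasts that overexpressed progerin or prelamin A. Members were chosen by symbol: RPL or RPS with a number and optionally the letter A, X or L, together with RPLP0, RPLP1, RPLP2 and RPSA, outside chromosome Y. On the array, 56 such genes had a probe set annotated to 1 gene, and 55 of them were among the 12723 genes tested. RPL3L, a muscle copy of RPL3, stayed under a signal of 100 on every array and was left out. The 55 genes were 32 of the large subunit, 21 of the small subunit and 2 of the lateral stalk, and they lay on 19 chromosomes. A further 15 ribosomal protein genes were seen only on probe sets that also name other genes, mostly small RNA genes within their introns. RPLP0, RPSA, RPL5, RPL23, RPL26 and RPS26 were not analysed here as members.

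A ribosome is built of a small subunit, which decodes the mRNA, and a large subunit, which joins the amino acids, and each holds ribosomal RNA and many proteins present in about equal number. The protein genes are spread over the genome but are expressed together, and their mRNAs are among the most abundant of a growing cell. In vertebrates these mRNAs begin with a C and a run of pyrimidines, the terminal oligopyrimidine or TOP motif, through which mTOR signalling regulates their translation. Some ribosomal proteins, RPL11 among them, bind MDM2 and so raise p53 when ribosome assembly fails. Loss of a copy of RPS19, RPS7, RPS10, RPS24 or RPL35A causes Diamond-Blackfan anaemia.

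The 7 arrays comprised 1 of cells with progerin and FTI, 1 with progerin, 1 with prelamin A and FTI, 1 with prelamin A and ZMPSTE24, 1 with prelamin A, and 2 controls. The labels give 1 primary strain of dermal fibroblasts of a healthy individual, at passage 10, for all 7 arrays, whereas the methods name 2 strains and state that both were transduced. Progerin is the shortened, permanently farnesylated lamin A of progeria, and prelamin A is the farnesylated precursor of lamin A, which the protease ZMPSTE24 cuts. FTI is the farnesyltransferase inhibitor L-744832, given at 10 nM for 48 h. According to the methods, progerin and prelamin A were cloned into a lentiviral vector with the CMV promoter. The methods also state that transduced cells expressing the fluorescent protein GFP were sorted. In the paper's growth curves the control line carried a GFP lentivirus. The labels name neither a virus nor a vehicle for the control arrays. For the array of prelamin A with FTI, the title names FTI alone, and its source and treatment labels were followed.

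The values were MAS 5.0 signals, scaled on each array to a common level. Each condition other than control was 1 array, so p-values for single conditions rest on the spread between the 2 controls, which may be technical. Where conditions were grouped, p-values rest also on differences between the grouped conditions. The signal exceeded by the brightest 0.1% of probe sets was 33630 with progerin and FTI, 32280 with progerin and 35693 on control 2, against 38100 to 39674 on the other 4 arrays. All 10 fibroblast markers read at least 100 on every array. Under 100 on every array were 4 of 5 keratinocyte, 2 of 3 endothelial, 1 of 2 leukocyte and 3 of 3 melanocyte markers. KRT10 was the exception of the keratinocyte list. Of 4 genes listed for the kidney line used to make virus, INA and NEFL were above both controls on all 5 transduced arrays and the other 2 were not, and the 4 together had a summed signal of 477 to 872 there and 134 and 137 on the controls. The brightest LMNA probe set read 16289 with progerin and 8498 with prelamin A, against 9300 and 14029 on the controls, and ZMPSTE24 read 5779 with prelamin A and ZMPSTE24, against 6120 with prelamin A. Whether these probes lie within the introduced cDNAs is not known here, so they did not check the labels, and arrays are named as labelled. The ratio of 3′ to 5′ signal of ACTB was 1.5 with prelamin A and ZMPSTE24 and 1.62 with prelamin A, against 1.06 to 1.26 on the other 5 arrays.

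The start of a ribosomal protein gene carries the TOP motif, so the annotated starts of the genes on which the results turn are shown first. Each window runs 5′ to 3′ on the strand of the gene, from 10 bases before the start base to the 18th base of the transcript, in RefSeq on GRCh38.p14. Capitals mark a run of C and T that begins with C at the start base and is at least 5 bases long.
RPS27 (chr1:153990752-153990779, plus strand): cgctttcgctCCTTTCCggcggtgacga
RPS27L (chr15:63157460-63157487, minus strand): gatgccgagcgcagatcgcttgcagctt
RPS21 (chr20:62387093-62387120, plus strand): ctagctgcttCCTTTCTCTCTCgcgcgc
RPL36 (chr19:5690285-5690312, plus strand): cggcgccagcCCTTCCgccacggccgtc
RPL27A (chr11:8682782-8682809, plus strand): gaaggccttcCTTTTTCgtctgggctgc
RPLP2 (chr11:809957-809984, plus strand): tcggcgccttCCTTTTCCTCCCTgtcgc
RPL10L (chr14:46651764-46651791, minus strand): gtagttaagagagcgcattttgacttcg
RPL22 (chr1:6199578-6199605, minus strand): cgctcacctcCCTTTCTaactccgctgc
RPL22L1 (chr3:170870178-170870205, minus strand): ccgtagcttcCTCTCTgctctcgcggcc

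RPS27 and RPL22 are shown beside their copies RPS27L and RPL22L1. The starts of RPS27L and RPL10L had no such run, while that of RPL22L1 had 6 pyrimidines from the start base, against 7 in RPL22. RPS21 had a run of 12 and RPLP2 of 13. The table of starts held 48 of the 55 members, with 55 starts, and 34 of the 48 genes had the run at a start. It was present at 61.8% of the members' starts and at 4.07% of the 35116 starts of all genes in the table, read on the gene's own strand only. A match is a description of the annotated start base, which can be off by a few bases from the start used in these cells. Of the 14 members without the run, 8 had 9 or more pyrimidines in a row within 20 bases of the start.

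Compared with control, the ribosomal protein genes lay slightly but broadly lower with progerin, and none was called. The median log2 change of the 55 members was -0.24, against 0.01 over all genes tested, and 52 of 55 members were below the control mean, against 49.3% of all genes. A gene was called where limma gave more than a 2-fold change with p under 0.05 before adjustment. No member of the 55 met this (0 of 55), against 5.8% of all genes tested, and 0 of 55 had an unadjusted p under 0.05, against 6.76% of all genes, the smallest being 0.26 with an adjusted p of 0.973. The members had an interquartile range of 0.14 on the log2 scale, against 0.56 over all genes. On every array 49 of the 55 read at least 10000, whereas a gene tested needed 100 on 1 array. Ranges and shares called are thus set against genes of unlike brightness, and genes of like brightness were not compared. The median log2 difference of the members between the 2 controls was 0.13, control 1 being above control 2 for 45 of 55. The median with progerin was -0.30 against control 1 alone and -0.16 against control 2 alone. In bulk RNA, fewer cells of a kind and less RNA per cell cannot be told apart, and a change of total RNA per cell is not seen after scaling.

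**Figure D1:**
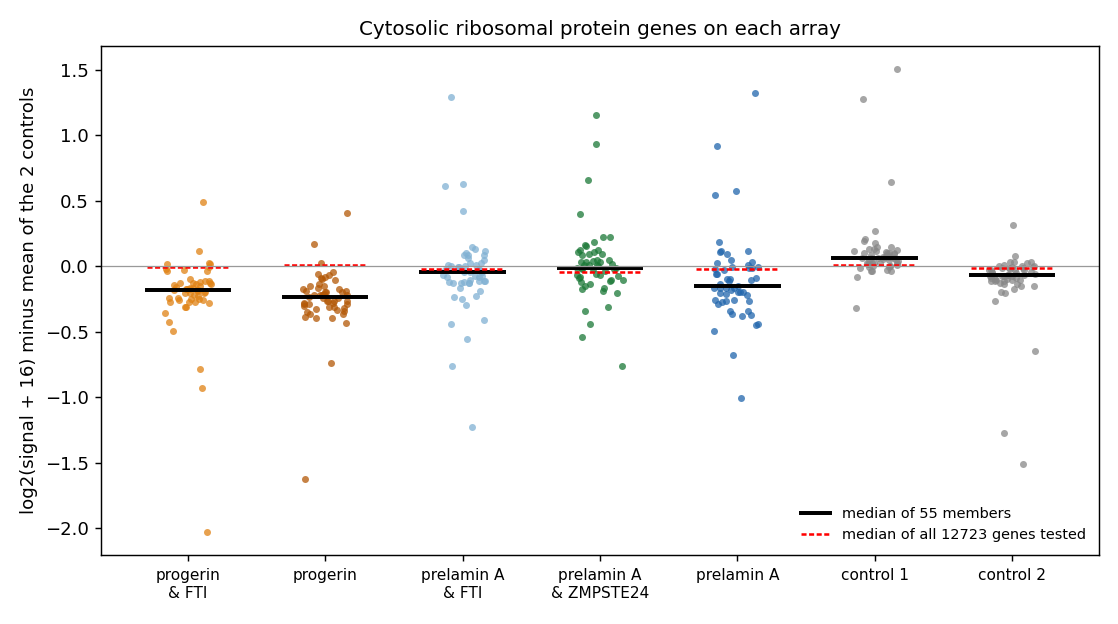
Each point is 1 of the 55 ribosomal protein genes on 1 array, as log2(signal + 16) minus the mean of the 2 controls; black bars are the medians of the members and red dashes those of all 12723 genes tested. The member medians were -0.18 with progerin and FTI, -0.24 with progerin, -0.04 with prelamin A and FTI, -0.01 with prelamin A and ZMPSTE24 and -0.15 with prelamin A, and the controls lay at 0.07 and -0.07.

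With prelamin A the median was nearer 0 than with progerin in the values as deposited, and the members were more spread. It was -0.15, against -0.02 over all genes, and 42 of 55 members were below the control mean, against 51.5% of all genes. Again 0 of 55 were called, against 10.3% of all genes tested, and none had an unadjusted p under 0.05, against 11.9% of all genes, the smallest being 0.0635 for RPL36. The interquartile range was 0.26, against 0.70 over all genes, which are of unlike brightness as above. Against control 1 alone the median was -0.21 and against control 2 alone -0.09. Over the 26 members with a probe set designed to 1 transcript it was -0.26, against -0.22 with progerin. After quantile normalization it was -0.12, against -0.08 with progerin, so the order of progerin and prelamin A depended on the processing. Small subunit members were below the control mean for 19 of 21 genes with either lamin protein, and large subunit members for 31 of 32 with progerin and 23 of 32 with prelamin A.

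Each member was also placed relative to both controls, which needs no estimate of spread. With progerin and FTI 43 of 55 members were below both controls and with progerin 48 were, against 34.5% and 33.8% of all genes. With prelamin A and FTI the number was 27, with prelamin A and ZMPSTE24 17 and with prelamin A 35, against 38.4%, 39.6% and 38.8% of all genes. Members above both controls were few, except with prelamin A and ZMPSTE24. They numbered 2 with progerin and FTI, 1 with progerin, 3 with prelamin A and FTI, 14 with prelamin A and ZMPSTE24 and 5 with prelamin A, against 31.7%, 34.1%, 34.5%, 32.8% and 35.4% of all genes. On all 5 transduced arrays together, 14 members were below both controls, which is 25.5% of the members, against 12.3% of all genes. These were RPL3, RPL8, RPL11, RPL12, RPL14, RPL18, RPL29, RPL32, RPL35A, RPS9, RPS10, RPS12, RPS21 and RPS29, named after their values were seen. RPS27L was the 1 member above both controls on all 5, against 11.9% of all genes.

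**Figure D2:**
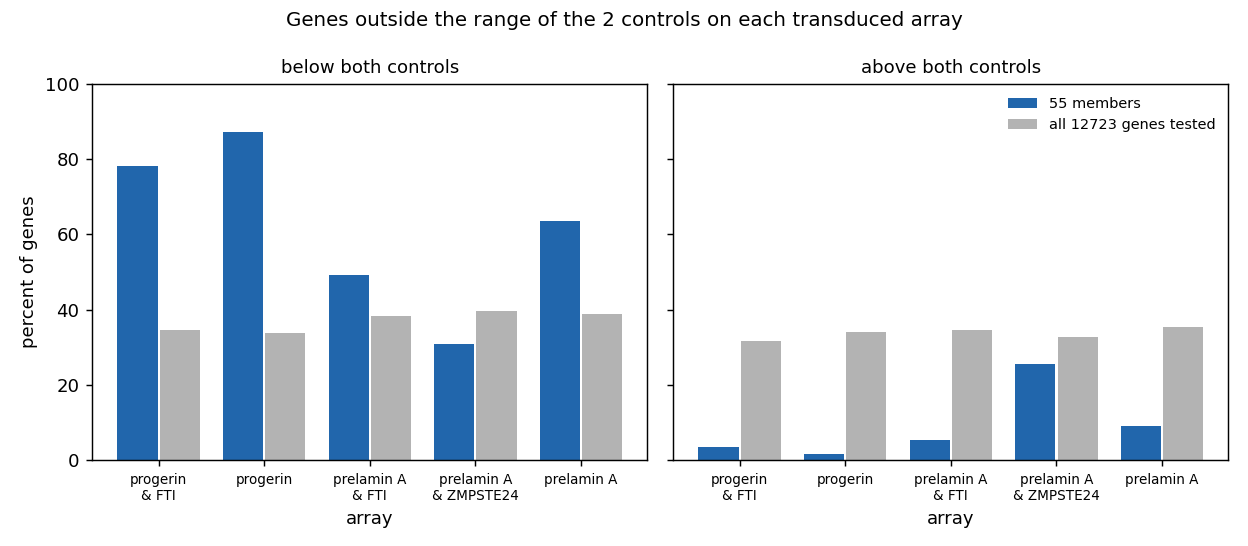
Bars give the percent of the 55 members (blue) and of all 12723 genes tested (grey) below both controls (left) and above both controls (right) on each of the 5 transduced arrays. The members' share below both controls was 78.2% with progerin and FTI, 87.3% with progerin, 49.1% with prelamin A and FTI, 30.9% with prelamin A and ZMPSTE24 and 63.6% with prelamin A.

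The signal of the brightest probe sets also differed between arrays. On every array 49 of the 55 members read at least 10000, and the progerin arrays and control 2 had the lowest such limit for the brightest 0.1% of probe sets. When all arrays were given the same distribution by quantile normalization, the median with progerin was -0.08 instead of -0.24 and the median with prelamin A was -0.12. Members below both controls then made up 60% of the members with progerin and 60% with prelamin A. Those above both made up 18.2% with progerin, and the shares of all genes after this normalization were not computed. The part of the upper signal range in the result was not tested beyond this.

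**Figure D3:**
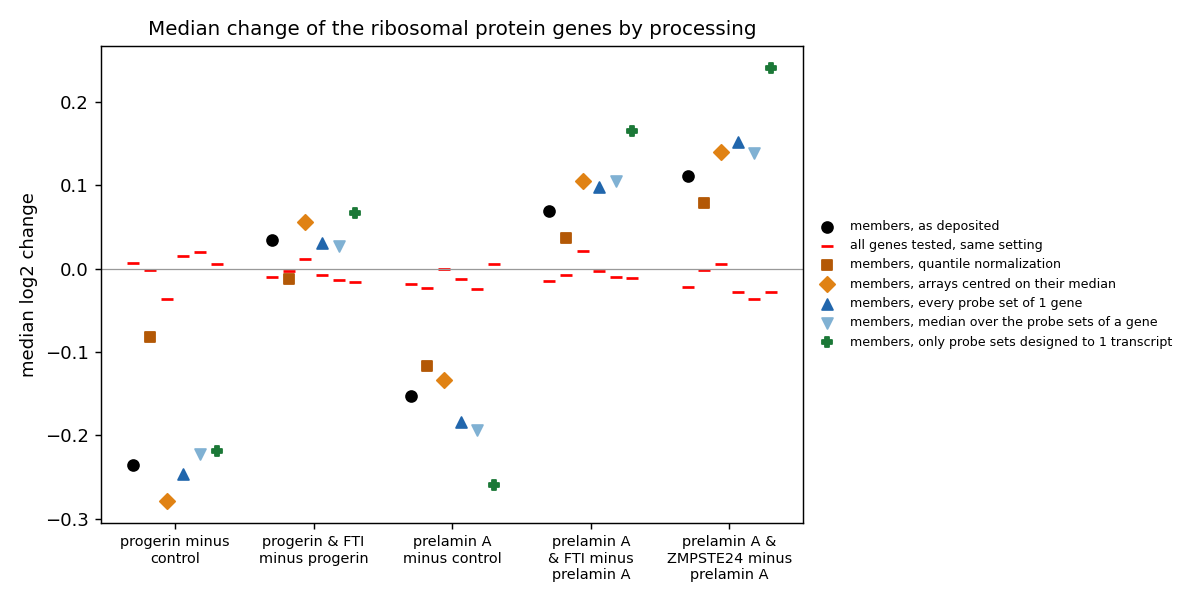
Symbols give the median log2 change of the members in the 5 comparisons (x axis) under 6 ways of processing, and red dashes the median of all genes tested under each. The median with progerin was between -0.28 and -0.22 except after quantile normalization, where it was -0.08.

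With FTI in progerin cells the ribosomal protein genes had a median log2 change near 0 relative to progerin. It was 0.03, against -0.01 over all genes, but it was -0.01 after quantile normalization, 0.06 after centring each array on its median and 0.07 with only probe sets designed to 1 transcript (26 members). Of the 55 members, 41 were above the progerin array, against 48.2% of all genes. None was called, against 1.45% of all genes tested, and none had an unadjusted p under 0.05, against 1.45% of all genes. In prelamin A cells the median with FTI was 0.07, against -0.01 over all genes, and 42 of 55 members were above the prelamin A array, against 48.3% of all genes. None of these was called, against 2.81% of all genes tested, and none had an unadjusted p under 0.05, against 2.84% of all genes. The median was 0.04 after quantile normalization, 0.11 after centring and 0.17 with only probe sets designed to 1 transcript. With ZMPSTE24 the median was 0.11, against -0.02 over all genes, and 47 of 55 were above the prelamin A array, against 47.6% of all genes. Here too 0 of 55 were called, against 5.03% of all genes tested, and none had an unadjusted p under 0.05, against 5.09% of all genes. The median with ZMPSTE24 was 0.08 after quantile normalization, 0.14 after centring and 0.24 with only probe sets designed to 1 transcript. These comparisons share the progerin or prelamin A array with the comparisons against control, so a low value on that array enters both.

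**Figure D4:**
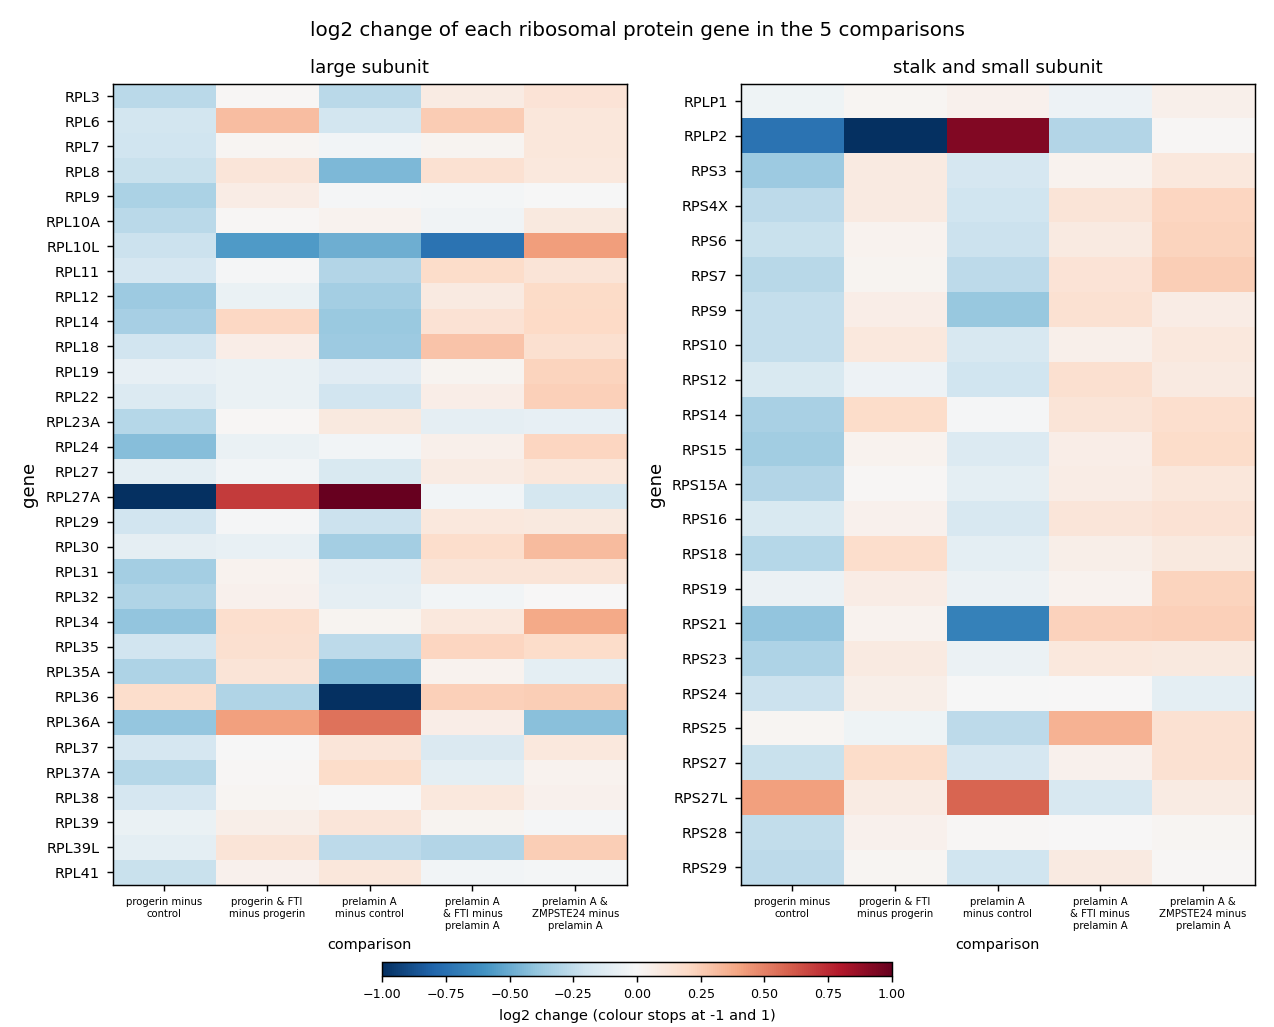
Each row is a ribosomal protein gene and each column a comparison, coloured by log2 change from blue (lower in the first named condition) to red (higher), with the colour ending at -1 and 1. Most rows are pale, between -0.5 and 0.5, and RPL27A, RPLP2, RPL36, RPS21, RPS27L, RPL10L and RPL36A stand out.

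Grouping the arrays as treated (the FTI and ZMPSTE24 arrays, n = 3), lamin (progerin and prelamin A, n = 2) and control (n = 2) gave 4 residual degrees of freedom. The arrays of the lamin and treated groups are different conditions and not replicates, so the SE and p-values include differences between these conditions. Prelamin A cells gave 2 of the 3 treated arrays, so the line also enters treated against lamin. Relative to control, the members' medians were -0.24 and -0.18 on the progerin arrays and -0.15, -0.04 and -0.01 on the prelamin A arrays. Of the 55 members, 51 were lower on lamin arrays than on controls, with a median of -0.19, against 51.4% of all genes and a median of -0.01. Treated arrays were above lamin arrays for 51 of 55 members, with a median of 0.08, against 46.8% of all genes, and below controls for 44 of 55 with a median of -0.09, against 54% of all genes. No member passed an adjusted p of 0.05 in limma, against 0.558% of all genes for lamin against control, 0% for treated against lamin and 1.08% for treated against control. At an unadjusted p under 0.05, 2 members passed for lamin against control and the same 2 for treated against control, RPS21 and RPS27L, against 11.3% and 14.4% of all genes. None passed for treated against lamin, against 1.99% of all genes.

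RPS27L encodes a copy of the small subunit protein RPS27 and is induced by p53. Its signal was 24543 with progerin and FTI, 23195 with progerin, 23333 with prelamin A and FTI, 27627 with prelamin A and ZMPSTE24, and 26056 with prelamin A, against 17414 and 17465 on the controls. All 5 transduced arrays were higher than both controls, which differed little. The log2 change was 0.49 ± 0.18 (SE) for lamin arrays against control, with an unadjusted p of 0.033 and an adjusted p of 0.386 in limma. For treated arrays against control it was 0.53 ± 0.17 (SE), with an adjusted p of 0.240. Its other probe sets did not all follow. A dimmer one read 788 with progerin and FTI, 541 with progerin, 4629 with prelamin A and FTI, 3772 with prelamin A and ZMPSTE24, and 4597 with prelamin A, against 2421 and 434 on the controls. That probe set was higher on the prelamin A arrays than on both controls but lay between the controls on the progerin arrays. RPS27 itself read 31181 with progerin and FTI, 27428 with progerin, 29376 with prelamin A and FTI, 31717 with prelamin A and ZMPSTE24, and 28489 with prelamin A, against 33492 and 30580 on the controls. RPS27 was thus below both controls with progerin and with prelamin A, where RPS27L was above both.

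RPS21, another small subunit protein, lay at the opposite end. It read 23853 with progerin and FTI, 23301 with progerin, 22515 with prelamin A and FTI, 22562 with prelamin A and ZMPSTE24, and 19170 with prelamin A, against 30711 and 30461 on the controls. Every transduced array was below both controls, and the prelamin A array was the lowest. For lamin arrays against control the log2 change was -0.53 ± 0.18 (SE), with an unadjusted p of 0.0245 and an adjusted p of 0.350 in limma. The dimmer probe set of RPS21 read 397 with progerin and FTI, 395 with progerin, 327 with prelamin A and FTI, 402 with prelamin A and ZMPSTE24, and 279 with prelamin A, against 861 and 706 on the controls. Both probe sets were below both controls on every transduced array, and the dimmer one had a log2 change of -1.43 with prelamin A, past the call when only probe sets designed to 1 transcript were used.

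**Figure D5:**
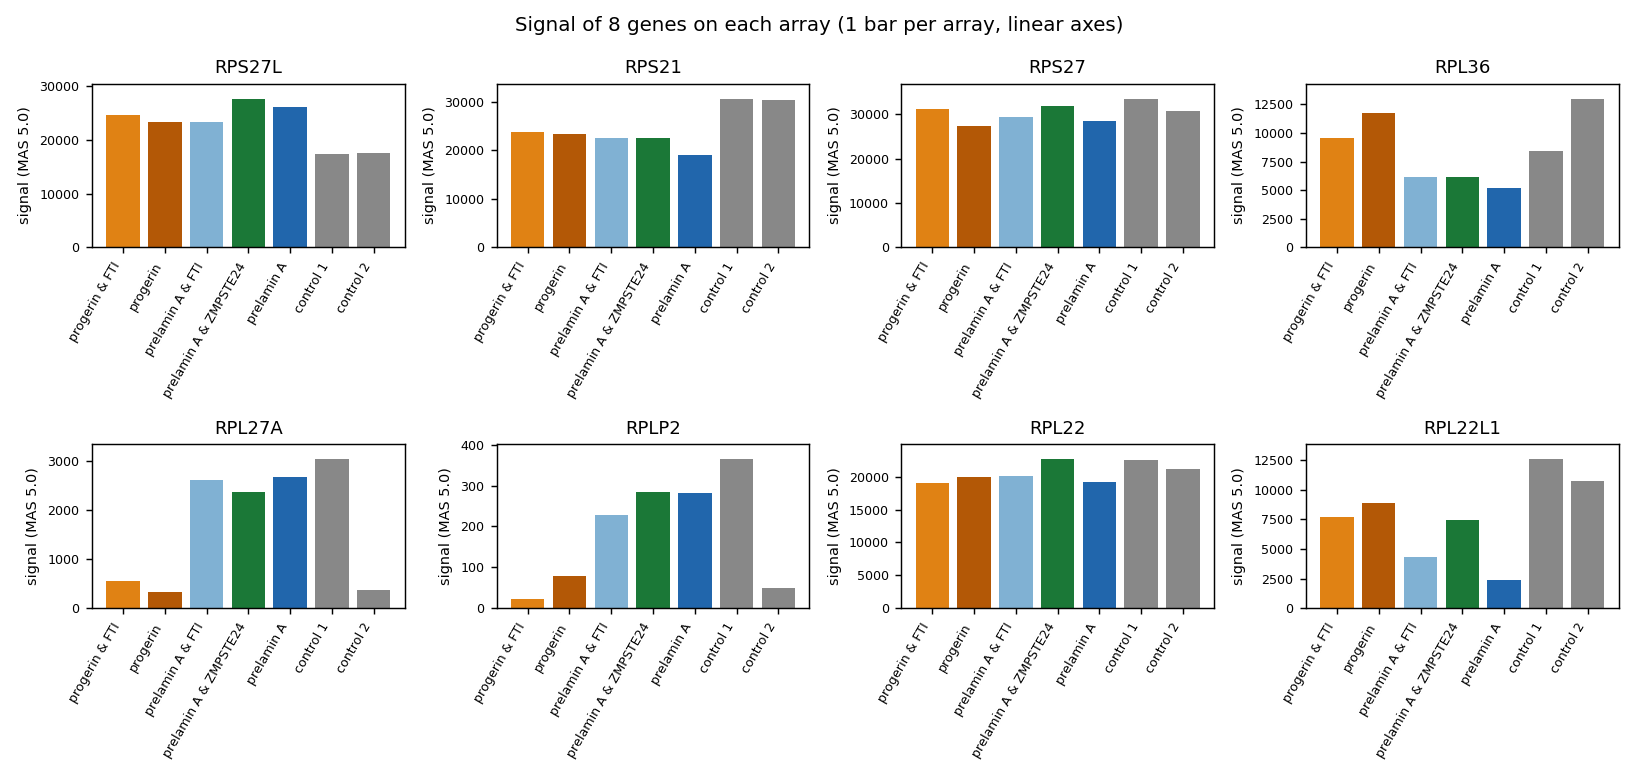
Bars give the signal of 8 genes on each of the 7 arrays (linear axes, 1 bar an array). RPS27L is higher and RPS21 lower on the 5 transduced arrays than on both controls, RPL27A and RPLP2 are low on both progerin arrays and control 2, and RPL22L1 is lowest with prelamin A.

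RPL36, a large subunit protein, had the lowest log2 change with prelamin A. Its signal was 9582 with progerin and FTI, 11789 with progerin, 6151 with prelamin A and FTI, 6167 with prelamin A and ZMPSTE24, and 5207 with prelamin A, against 8406 and 13010 on the controls. The prelamin A arrays were all below both controls, the progerin arrays lay between them, and control 1 minus control 2 was -0.63 on the log2 scale. The log2 change with prelamin A was -1.0 ± 0.41 (SE), with an unadjusted p of 0.0635 and an adjusted p of 0.459, and RPL36 was called when limma modelled an intensity trend. A dim second probe set of RPL36 read 22.4 with progerin and FTI, 32.7 with progerin, 85.5 with prelamin A and FTI, 45.9 with prelamin A and ZMPSTE24, and 50 with prelamin A, against 121 and 89.3 on the controls. It was below both controls on all 5 transduced arrays, unlike the brighter one.

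RPL27A, a large subunit protein, and RPLP2, an acidic protein of the stalk that recruits elongation factors, followed another division of the arrays. RPL27A read 547 with progerin and FTI, 331 with progerin, 2619 with prelamin A and FTI, 2369 with prelamin A and ZMPSTE24, and 2671 with prelamin A, against 3033 and 361 on the controls. RPLP2 read 22.4 with progerin and FTI, 78.1 with progerin, 227 with prelamin A and FTI, 284 with prelamin A and ZMPSTE24, and 282 with prelamin A, against 364 and 48.8 on the controls. In both genes control 1 was near the prelamin A arrays and control 2 near the progerin arrays. The 2 controls differed by 3.01 and 2.55 on the log2 scale, the largest differences of any member. Their changes with progerin were -1.63 ± 1.27 and -0.74 ± 1.09 (SE), and with prelamin A 1.33 ± 1.27 and 0.92 ± 1.09 (SE). All were smaller than the difference between the controls, and RPL27A with progerin, at 331, was below both controls. RPL36A, at 45 to 133.2 on all arrays, had controls that differed by 1.29. These are the values of the probe set that represents each gene, and whether a low signal is that of the mRNA was not tested.

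RPLP1, the partner of RPLP2 in the stalk, read 36006 with progerin and FTI, 35599 with progerin, 36573 with prelamin A and FTI, 39335 with prelamin A and ZMPSTE24, and 37970 with prelamin A, against 35937 and 37626 on the controls. Its log2 change with progerin was -0.05, and 0.20 after quantile normalization.

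Members known for signalling or disease were within the range of the rest. RPL11, which binds MDM2, read 19765 with progerin and FTI, 19897 with progerin, 20680 with prelamin A and FTI, 19917 with prelamin A and ZMPSTE24, and 18249 with prelamin A, against 22796 and 21888 on the controls. It was below both controls on every transduced array. RPS6, the substrate of S6 kinase, read 30121 with progerin and FTI, 29406 with progerin, 31520 with prelamin A and FTI, 34506 with prelamin A and ZMPSTE24, and 29566 with prelamin A, against 35546 and 33118 on the controls. It was below both except with ZMPSTE24, where it lay between them.

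Of the Diamond-Blackfan genes, RPL35A read 19779 with progerin and FTI, 18114 with progerin, 16915 with prelamin A and FTI, 15416 with prelamin A and ZMPSTE24, and 16502 with prelamin A, against 21943 and 22962 on the controls. RPS19 read 34581 with progerin and FTI, 32782 with progerin, 33618 with prelamin A and FTI, 38328 with prelamin A and ZMPSTE24, and 32838 with prelamin A, against 34400 and 33940 on the controls. RPL35A was below both controls on every transduced array, and RPS19 on 3 of them. With progerin and with prelamin A, the log2 changes of RPL35A were -0.31 and -0.44, of RPS19 -0.06 and -0.06, of RPS7 -0.28 and -0.26, of RPS10 -0.24 and -0.16, and of RPS24 -0.21 and -0.01.

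RPL10L and RPL39L are copies of RPL10 and RPL39 known from the testis, and both were dim. RPL10L read 93.1 with progerin and FTI, 146 with progerin, 64 with prelamin A and FTI, 163 with prelamin A and ZMPSTE24, and 118 with prelamin A, against 201 and 147 on the controls. It was the lowest or next to lowest member after FTI in both lines, at -0.57 ± 0.42 with progerin and -0.74 ± 0.42 with prelamin A (SE), with unadjusted p of 0.238 and 0.142 in limma. RPL39L read 619 with progerin and FTI, 564 with progerin, 409 with prelamin A and FTI, 598 with prelamin A and ZMPSTE24, and 503 with prelamin A, against 733 and 501 on the controls. RPL39 read 35385 with progerin and FTI, 34052 with progerin, 39407 with prelamin A and FTI, 38385 with prelamin A and ZMPSTE24, and 38687 with prelamin A, against 40218 and 31485 on the controls, and all 5 transduced arrays were between the controls.

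The remaining named members had the highest or lowest changes of a comparison without passing the test. With progerin these were RPL24 at -0.43 and RPL34 at -0.39 among the lowest and RPS25 at 0.02 among the highest. With prelamin A, RPL8 was at -0.45 and RPL10L at -0.49. With FTI in progerin cells, RPL6 was at 0.31, RPL14 at 0.21 and RPL30 at -0.08. With FTI in prelamin A cells, RPS25 was at 0.35, RPL18 at 0.28, RPL6 at 0.25 and RPL39L at -0.29. With ZMPSTE24, RPL34 was at 0.38, RPL30 at 0.32, RPS7 at 0.25, RPS24 at -0.09 and RPL36A at -0.42. RPL18 had 2 dimmer probe sets, of which 1 read 534 with progerin and FTI, 616 with progerin, 437 with prelamin A and FTI, 618 with prelamin A and ZMPSTE24, and 261 with prelamin A, against 736 and 599 on the controls. That probe set was lowest with prelamin A and passed the call in 2 comparisons when every probe set was used.

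Copies that the rule left out were read from a list of 6 genes, of which 5 were tested. RPL22L1 was the 1 called, with prelamin A and with ZMPSTE24, where 10.3% and 5.03% of all genes were called. RPL22L1, the paralog of the large subunit protein RPL22, read 7686 with progerin and FTI, 8848 with progerin, 4298 with prelamin A and FTI, 7473 with prelamin A and ZMPSTE24, and 2384 with prelamin A, against 12561 and 10706 on the controls. Every transduced array was below both controls, and the prelamin A array was the lowest. With prelamin A it fell by 2.27 ± 0.33 on the log2 scale (SE), or 4.84-fold, with an unadjusted p of 0.00155 and an adjusted p of 0.130 in limma. With ZMPSTE24 relative to prelamin A it rose by 1.64 ± 0.38 (SE) or 3.12-fold, with an unadjusted p of 0.01 and an adjusted p of 0.690. With FTI in prelamin A cells the change was 0.85 ± 0.38 (SE) at an unadjusted p of 0.0851, and with progerin -0.39 ± 0.33 (SE). The fall with prelamin A and the changes with ZMPSTE24 and FTI relative to prelamin A all use the 1 prelamin A array. Its low value of 2384 thus enters each of them. The start of RPL22L1 carries the run of pyrimidines shown above, as that of RPL22 does.

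RPL22 read 19077 with progerin and FTI, 19932 with progerin, 20050 with prelamin A and FTI, 22636 with prelamin A and ZMPSTE24, and 19144 with prelamin A, against 22585 and 21195 on the controls. It was below both controls on 4 transduced arrays and above both with ZMPSTE24, and none of its changes was called. With progerin and with prelamin A, FAU, a fusion of a ubiquitin-like protein and RPS30, was at -0.01 and -0.27, RPL36AL at -0.07 and -0.14, RPL26L1 at -0.36 and 0.27 and RPL7L1 at 0.15 and 0.11, and none was called.

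Members with and without the TOP run at an annotated start were described side by side. With progerin the median was -0.23 for the 34 with the run and -0.26 for the 14 without, and with prelamin A -0.16 and -0.14. Of a list of translation factors and other TOP mRNA genes, 20 were tested. Their median was -0.09 with progerin and -0.24 with prelamin A, against 0.01 and -0.02 over all genes. Called were 0 in each of the 5 comparisons, against 5.8% of all genes with progerin and 10.3% with prelamin A. Of all genes, 1.45% and 2.81% were called with FTI in progerin and prelamin A cells, and 5.03% with ZMPSTE24. On lamin arrays 20 of these 20 were below control, with a median of -0.16, against 51.4% of all genes and a median of -0.01. None passed the adjusted p, against 0.558% of all genes. EEF1A1, the elongation factor that brings aminoacyl-tRNA, read 38994 with progerin and FTI, 36651 with progerin, 44810 with prelamin A and FTI, 47027 with prelamin A and ZMPSTE24, and 44706 with prelamin A, against 43923 and 39867 on the controls. EEF2, the translocation factor, read 21011 with progerin and FTI, 18825 with progerin, 13459 with prelamin A and FTI, 14147 with prelamin A and ZMPSTE24, and 11166 with prelamin A, against 17093 and 21372 on the controls. EEF1A1 was lowest on the progerin arrays, and EEF2 on the prelamin A arrays.

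Genes that build or regulate ribosomes were given by their counts, to be read beside the 5.8% of all genes called with progerin and the 10.3% called with prelamin A. Of 74 ribosome biogenesis genes tested, 1 was called higher and 0 lower with progerin, TAF1C, a subunit of the RNA polymerase I factor SL1, at 1.07 ± 0.34 (SE). None was called with prelamin A or with FTI or ZMPSTE24 relative to the untreated array, so the list had a smaller share of calls than all genes, and the medians with progerin and with prelamin A were -0.05 and -0.15. Of 74 mitochondrial ribosomal protein genes, MRPS6 was called higher with progerin, at 1.07 ± 0.39, and with prelamin A, at 1.22 ± 0.39 (SE), and no other was called in the 5 comparisons, again a smaller share than over all genes. Of 30 MYC and mTOR regulators, 2 were called higher with progerin and 3 higher and 1 lower with prelamin A, shares near those of all genes, so the 4 genes are given as values and nothing is read from the list. MDM2, the p53 ligase that RPL11 binds, rose by 1.35 ± 0.38 with progerin and 1.21 ± 0.38 with prelamin A, and SESN3, an inhibitor of mTORC1 signalling, by 1.96 ± 0.59 and 3.02 ± 0.59 (SE). SESN3 was dim, at 93.6 with progerin and 212 with prelamin A, against 26.8 and 2.49 on the controls, and so the sizes depend on the pseudocount. Its change with progerin was 1.36 against control 1 alone and 2.57 against control 2 alone. With prelamin A, DEPTOR, a subunit of mTOR complexes that inhibits them, rose by 1.63 ± 0.51, and EIF4EBP1, the translation repressor inactivated by mTOR, fell by 2.08 ± 0.74 (SE). The controls were apart for EIF4EBP1, which read 693 with prelamin A, against 1683 and 5300 on the controls, and its change was -1.26 against control 1 alone and -2.91 against control 2 alone. DEPTOR read 1550 with prelamin A, against 693 and 346 on the controls, and its change was 1.14 against control 1 alone and 2.11 against control 2 alone. With 1 control left out, MRPS6 changed by 0.79 to 1.35 with progerin and 0.94 to 1.49 with prelamin A, TAF1C by 0.94 to 1.20 with progerin, and MDM2 by 1.09 to 1.61 with progerin and 0.95 to 1.47 with prelamin A. The adjusted p-values of these calls were 0.190 to 0.719, and none of the 30 was called with FTI or ZMPSTE24 relative to the untreated array. In the 3-state model SESN3 passed the adjusted p for treated arrays against control, as did 1.08% of all genes.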

How the data were processed

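Total RNA from 7 fibroblast cultures was hybridised to Affymetrix Human Genome U133 Plus 2.0 arrays. The authors deposited intensity values on a linear scale, 1 MAS 5.0 signal per probe set and array, background-corrected and scaled to a target in that software. Detection calls and probe-level values were not used. The platform annotation gave 1 gene for 41091 of 54675 probe sets; symbols and coordinates came from RefSeq, GRCh38.p14. Chromosome Y genes and XIST were left out. Probe sets reaching 100 on 1 or more arrays were kept, and the brightest represented each gene.

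Values were tested as log2(signal + 16) with limma 3.58.1 in R 4.3.3, which understates changes of dim genes. The model of 6 conditions had 1 residual and 3.50 prior degrees of freedom, and that of 3 states 4 and 2.60; p-values were adjusted by Benjamini-Hochberg over all 12723 genes. Simulated arrays with independent noise and known changes were used to check that the model recovers mean changes. They do not check the p-values of these arrays. The number of arrays limits the precision.

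The members and lists were chosen with earlier results of these data known. Named were called members, the 4 highest and 4 lowest changes per comparison, the stalk, MDM2-binding, RPS6, anaemia genes, copies with parents, and list genes that were called. The text names part of these, and EEF1A1 and EEF2 were named after their values were seen. Alternatives were pseudocounts of 1 and 64, quantile normalization, centring on the median, other filters, thresholds and probe set choices, an intensity trend, a block for the line and the removal of each array in turn.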

Additional observations from a re-analysis of the deposited data

Results flagged for a closer look

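Of the tests of a difference between effects, 2 passed an unadjusted p of 0.05 with a fold over 2 among the genes followed here. RPL22L1 had a log2 difference of -1.88 ± 0.38 (SE) for prelamin A minus progerin, at 2384 with prelamin A and 8848 with progerin, with an unadjusted p of 0.00592 and an adjusted p of 0.618 in limma. RPL10L differed between the ZMPSTE24 and the FTI effects in prelamin A cells by 1.16 ± 0.42 (SE), at 163 with ZMPSTE24 and 64 with FTI, with an unadjusted p of 0.0434 and an adjusted p of 1.00. Over all genes tested, 7.05% passed the comparison of prelamin A with progerin and 3.92% that of ZMPSTE24 with FTI. For RPL22L1 the difference uses the same prelamin A array as its calls above, so it is not a separate result. The cause of either difference was not tested.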

How the results depend on the processing

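No paired analysis was possible because no groups share 2 replicate numbers, the control being the 1 group with more than 1 replicate. The transduced arrays could be matched by the lamin protein they carry instead, and this line as a block, in the 3-state model, gave 0 members called in its 3 comparisons, as did leaving out any array, over which the medians ranged from -0.26 to -0.13 for lamin against control, 0.05 to 0.15 for treated against lamin and -0.15 to -0.01 for treated against control. Without a control the 6-condition model has no test; the medians were -0.16 and -0.30 with progerin and -0.09 and -0.21 with prelamin A.

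Quantile normalization gave a median of -0.082 with progerin, shares above both controls of 18.2% with progerin, 12.7% with progerin and FTI and 10.9% with prelamin A and FTI, and RPLP1 at 0.20 with progerin. Median centring gave 1.82% above with progerin and FTI, 14.5% above and 29.1% below with prelamin A and FTI, and RPS25 at -0.020 with progerin. With every probe set (105), 1 was called with progerin (RPL36), against 5.49% of all probe sets tested. With prelamin A 4 were called (of RPL18, RPS21 and RPS9), against 9.45%, and with ZMPSTE24 1 (RPL18), against 4.61%. Above both controls were 3.81% with progerin and 12.4% with prelamin A and FTI. The median over a gene's probe sets gave 3 calls with prelamin A (RPL18, RPS21, RPS27L), against 10.4% of all genes. It gave 1 with ZMPSTE24 (RPL18), against 5.30%. Shares above were 3.64% with progerin, 0% with progerin and FTI and 10.9% with prelamin A and FTI. RPL36 was at -0.56 with progerin and RPL35A at 0.21 with ZMPSTE24. RPS27L was at 0.0098 with FTI in prelamin A cells and -0.28 with ZMPSTE24. Probe sets designed to 1 transcript (26 members) gave 1 call with prelamin A (RPS21), against 10.6% of all genes. Medians were -0.26 with prelamin A, 0.17 with FTI in prelamin A cells and 0.24 with ZMPSTE24. RPL35A was at 0.35 with ZMPSTE24, and 0% were above with progerin and 15.4% with prelamin A and FTI. An intensity trend gave 1 call with prelamin A (RPL36), against 9.42% of all genes. Shares of all genes above or below both controls were not computed under these alternatives, and the cause of these differences was not tested. Over all alternatives, 184 counts and shares stayed within 1.5 times the value reported and 20 did not. A 0 that remained 0 counted as staying. Of the medians, 101 moved by less than 0.093, the SD of the members' median between the 2 controls, and 4 by more. That limit exceeds the medians with FTI, 0.03 and 0.07, so the change of sign in progerin cells after quantile normalization counted as staying. Of single gene changes, 426 kept their result and 24 moved by more than the limit where no test was possible. A further 7 changed sign and 4 passed the call only in the alternative.

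An alternative chosen after seeing the data took 59 probe sets that name a ribosomal protein gene with other genes: the medians were -0.24 with progerin, -0.19 with prelamin A, 0.04 and 0.09 with FTI in progerin and in prelamin A cells, and 0.15 with ZMPSTE24. Genes read from a dim probe set, such as RPLP2, RPL36A and RPL10L, are limited by that signal.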
